A study of Mus musculus with 21 samples.

Results

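The 10 genes described here mark mouse hematopoietic stem cells (HSCs) and were followed by bulk RNA sequencing: Slamf1, Cd48 and Ly6a, whose proteins CD150, CD48 and Sca-1 are used to sort HSCs; Procr, Cd34, Thy1 and Tek, which encode further surface proteins used to refine HSC isolation; and Fgd5, Hoxb5 and Ctnnal1, whose promoters or loci have been used to build HSC reporter mice. They were taken by symbol from a table of 21000 genes, in which each of the 10 had 1 entry. All 10 passed the filter on low counts over the whole series, which kept 13571 genes. The study used 5-fluorouracil (5-FU), an antimetabolite that kills cycling blood cells and is followed by division of HSCs, in wild-type C57BL/6 mice that were 10 weeks old at the first administration.

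There were 7 groups of 3 libraries. A first set of mice had a single intraperitoneal injection of PBS or of 5-FU, the latter at 150 mg/kg, and was analyzed at day 6, counting the injection as day 1. In a second set the injection was given 3 times, 21 days apart, with analysis at day 6 of the last round. Other mice had 5-FU once or 3 times and were analyzed at day 21, and an untreated group of mice was 2 years old (old HSCs). The study had no PBS group at day 21, so HSCs of day 21 are set beside PBS-treated HSCs of day 6. Each library was made from 3000 to 3500 HSCs of bone marrow, sorted as CD150+ CD48- Lineage- Sca-1+ c-Kit+ (LSK) cells, also Flt3- in the study's methods, from 3 independent experiments. For 5-FU-treated mice 5 days after the drug, the c-Kit gate was widened from high to dim and the antibody to Mac-1 was left out of the Lineage mix. Treatment and this change of gate therefore coincide at day 6 and cannot be told apart. The gate was not widened at other times, so day 21 against day 6 after 5-FU crosses this change too. The cells were selected on CD150, CD48 and Sca-1 protein, so that the transcripts of Slamf1, Cd48 and Ly6a were read in cells already chosen for these proteins, whereas EPCR, the protein of Procr, was not in the gate. In bulk libraries, fewer cells with a transcript and less of it in each cell cannot be told apart.

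Many of these proteins work at the surface of the HSC. CD150 and CD48 are receptors of the signaling lymphocyte activation molecule (SLAM) family, and their opposite use, CD150 present and CD48 absent, separates HSCs from most progenitors of mouse bone marrow. Sca-1 and Thy1 are anchored to the membrane by glycosylphosphatidylinositol, EPCR binds protein C, and TIE2, the protein of Tek, is the receptor of angiopoietin, a niche signal linked to quiescence. CD34 is a sialomucin that is low on adult mouse HSCs and higher on multipotent progenitors, Fgd5 encodes a guanine nucleotide exchange factor, Hoxb5 a homeodomain transcription factor, and Ctnnal1 alpha-catulin.

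In GENCODE vM21 on GRCm38, the build that the authors' mm10 alignment also names, all 10 are protein-coding genes. Slamf1 lies on the plus strand of chr1:171767127-171801184, 61868 bp downstream of the end of Cd48 (plus strand, chr1:171682009-171705258), and Cd34 is on the plus strand of the same chromosome, at chr1:194938819-194961279. Procr is at chr2:155751117-155755471 (plus), Ly6a at chr15:74994877-74998031 (minus), Thy1 at chr9:44043384-44048579 (plus) and Tek at chr4:94739289-94874976 (plus). Fgd5 is at chr6:91978878-92076004 (plus), Hoxb5 at chr11:96303336-96306121 (plus) and Ctnnal1 at chr4:56810935-56865188 (minus). The library kit does not keep strand, and 3.59% of the exonic bases of Hoxb5 are shared with the antisense gene Hoxb5os and 2.03% of those of Cd34 with the opposite-strand gene Gm16897, so reads there cannot be assigned to 1 of the 2 genes. In the longest transcript of Ly6a, 2.38% of the runs of 75 bases, the read length, also occur in Ly6c1 or Ly6i.

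The sequences just upstream of 4 of these genes are shown because Cd34 and Cd48 passed the test at day 6 after both 1 and 3 administrations, and because Procr and Fgd5 had the highest correlation of any pair of the 10 genes over the 21 libraries. Each run, from RefSeq on GRCm38.p6, ends before the first base that RefSeq or GENCODE gives for the gene and is written from 5′ to 3′ on the plus strand, with CG dinucleotides in capitals.
Cd34, chr1:194938571-194938818: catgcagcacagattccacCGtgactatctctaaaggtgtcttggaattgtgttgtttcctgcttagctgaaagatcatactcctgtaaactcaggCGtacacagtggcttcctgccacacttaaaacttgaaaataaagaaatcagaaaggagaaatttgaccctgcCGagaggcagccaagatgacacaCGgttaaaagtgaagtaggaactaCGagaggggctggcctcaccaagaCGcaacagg
Cd48, chr1:171681742-171681991: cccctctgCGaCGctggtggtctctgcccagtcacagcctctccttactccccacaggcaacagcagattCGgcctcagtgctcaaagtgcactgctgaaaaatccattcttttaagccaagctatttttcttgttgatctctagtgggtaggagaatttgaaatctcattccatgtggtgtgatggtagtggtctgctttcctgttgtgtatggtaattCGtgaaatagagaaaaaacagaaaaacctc
Procr, chr2:155750967-155751116: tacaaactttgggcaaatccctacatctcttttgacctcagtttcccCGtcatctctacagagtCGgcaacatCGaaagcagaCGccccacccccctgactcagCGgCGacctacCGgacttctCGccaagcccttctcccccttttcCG
Fgd5, chr6:91978715-91978877: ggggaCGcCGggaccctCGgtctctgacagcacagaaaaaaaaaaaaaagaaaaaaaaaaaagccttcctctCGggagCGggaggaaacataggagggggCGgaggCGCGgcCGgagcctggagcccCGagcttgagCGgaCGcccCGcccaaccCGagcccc
The run before Cd34 holds 6 CG dinucleotides in 248 bases and that before Cd48 holds 4 in 250, while the shorter runs before Procr and Fgd5 hold 9 in 150 and 14 in 163. The median over the 32851 upstream windows of 250 bases in the same table is 6. The GC content of these runs is 46.4% for Cd34, 46.0% for Cd48, 56.0% for Procr and 62.6% for Fgd5, against a median of 52.4%.

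Library totals ranged from 22184885 to 38649033 counts with a median of 26962256, and 3 counts, taken as the floor of a library, correspond to 0.0850 to 0.128 CPM (counts scaled to a common library size of 1000000). CPM here are scaled by the trimmed mean of M values over all 21 libraries. In the count table, the names of the 6 columns for day 6 of a single administration end in an extra digit, the other 15 do not, and what the digit stands for is not given in the sources used here. Both comparisons of 5-FU with PBS at day 6 stay within a set of names, and so does day 21 against day 6 after 3 administrations. Day 21 after 1 administration against day 6 of a single 5-FU or PBS, and PBS 3 times against PBS once, cross the sets. The difference in response between 1 and 3 administrations at day 6 also lies across them. Of the gate antigens, Cd8a was at 0 counts in all 21 libraries, Cd4 reached at most 3.82 CPM, and Ly6g, a neutrophil gene of the Gr-1 epitope, was at 0 in 16 libraries.

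The 10 genes spanned several orders of level. Per kilobase of the longest annotated transcript, the mean level in HSCs given PBS once was 279 CPM for Ly6a, 109 for Cd34, 43.6 for Tek, 16.2 for Procr and 9.24 for Slamf1. Ctnnal1 was at 7.19, Fgd5 at 6.60, Cd48 at 3.61, Hoxb5 at 1.31 and Thy1 at 0.350 CPM per kilobase. The order was the same when the longest protein-coding transcript set the length, although Slamf1 and Procr then came close, at 15.2 and 16.3 CPM per kilobase. The positive gate antigens Ly6a and Slamf1 thus both lay above the negative antigen Cd48, and Thy1 was the lowest of the 10 in every group.

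**Figure D1:**
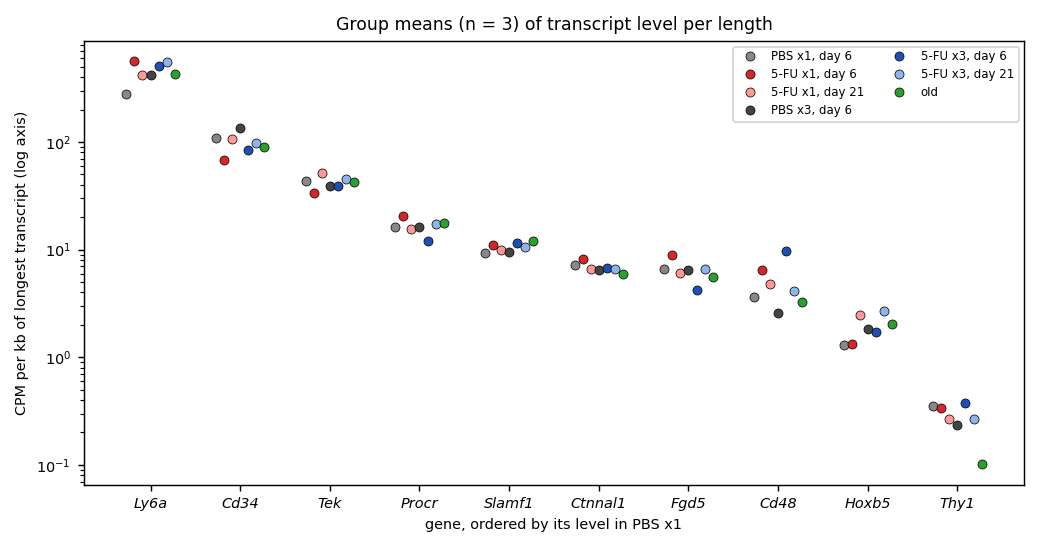
Group means of 3 libraries, in CPM per kilobase of the longest transcript on a log axis, for the 10 genes ordered by their level after PBS once; colours mark the 7 groups. Ly6a is highest in every group (279 in PBS once) and Thy1 lowest (0.350 in PBS once), and among the others Cd48, Fgd5 and Ctnnal1 change places between groups.

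Over the 7 groups, 7 of the 10 genes differed by edgeR's quasi-likelihood test of any difference among groups, against 37.6% of all genes tested. They were Cd34 (Benjamini-Hochberg adjusted p = 1.11e-05), Ly6a (1.34e-05), Hoxb5 (0.00122), Procr (0.00479), Fgd5 (0.00492), Tek (0.00883) and Cd48 (0.0146). The call for Cd48 was lost without replicate 2 of 5-FU 3 times at day 6 (adjusted p = 0.0504). Slamf1 (adjusted p = 0.102), Ctnnal1 (0.106) and Thy1 (0.328) did not pass. Ctnnal1 passed only when replicate 3 of 5-FU once at day 6 was left out (0.0417).

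**Figure D2:**
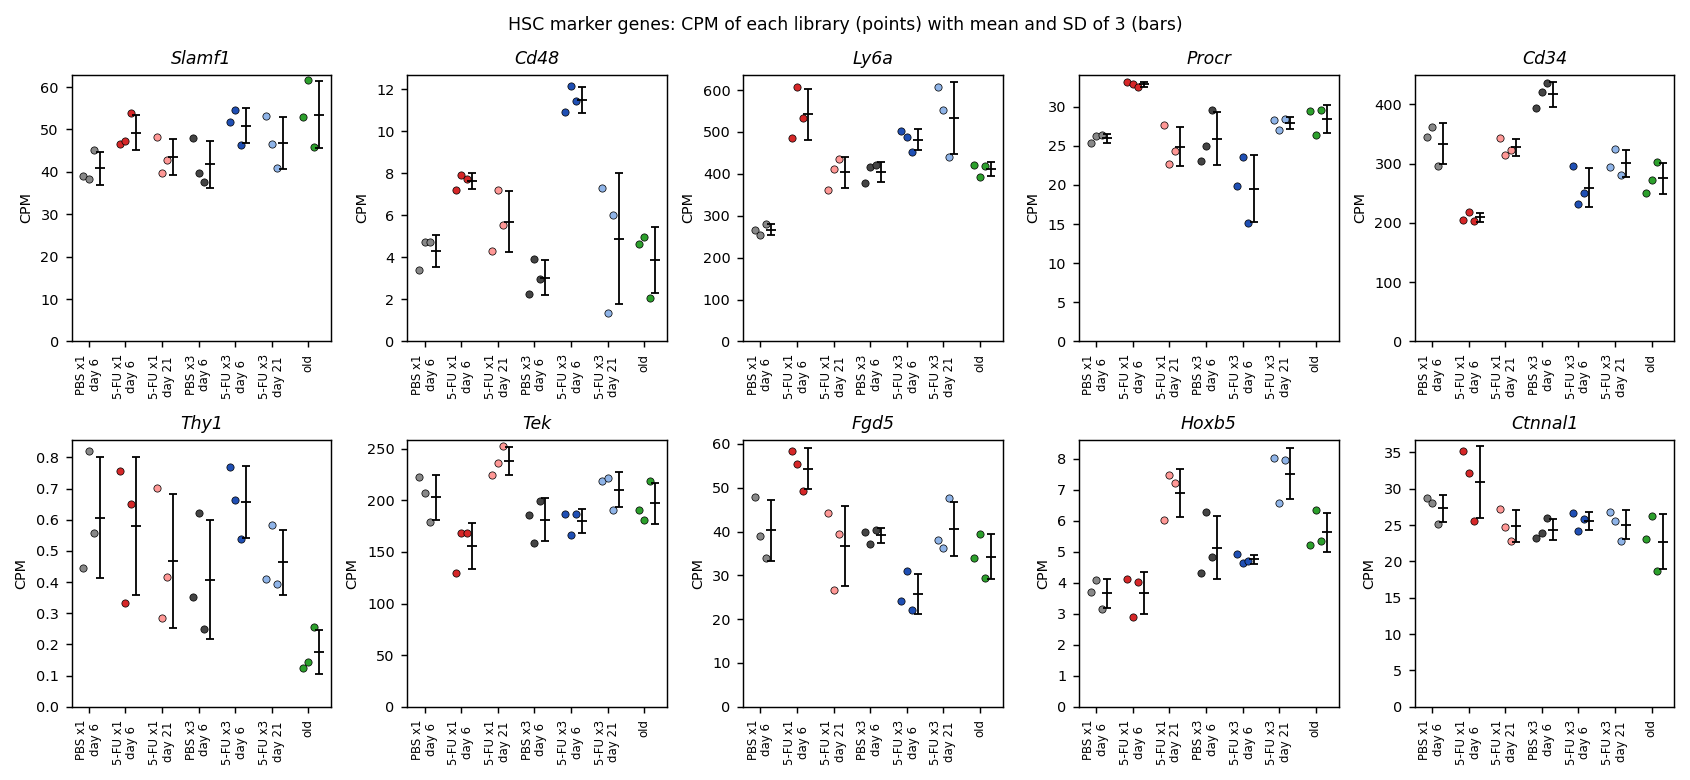
CPM of each of the 21 libraries (points) and the mean with SD of 3 (bars) for the 10 genes in the 7 groups, with every axis starting at 0. Cd34 is lowest at day 6 after a single 5-FU (204 to 219 CPM), Cd48 is highest at day 6 after 3 administrations (10.9 to 12.1 CPM), and Hoxb5 is highest in both groups of day 21.

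The first comparison asks how the markers stood in HSCs 5 days after a single 5-FU. Ly6a rose 2.03-fold, Cd48 and Procr rose less, and Cd34 fell, so that 3 of the 10 genes were called higher and 1 lower. Of all 12759 genes tested, 22.2% were called, 11.5% higher and 10.6% lower. The median log2 fold change of the 10 was 0.22, beside -0.000556 over all genes tested. For 7 of the 10 there was no overlap between the 2 groups, against 43.8% of all genes.

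Ly6a was at 267, 254 and 279.7 CPM in the PBS libraries and at 485, 607 and 534 CPM in the 5-FU libraries. The lowest 5-FU library lay well above the highest PBS library, and the ratio of means was 2.03 (log2 fold change 1.01, SE 0.0927, adjusted p = 0.00137). Cd34 was at 344, 362 and 295 CPM after PBS and at 205, 219 and 204 CPM after 5-FU. All 3 treated libraries lay below all controls, and the mean fell from 334 ± 34.4 to 209 ± 8.29 CPM (SD, n = 3; log2 fold change -0.68, SE 0.0864, adjusted p = 0.00351). Both calls held under every alternative run.

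Cd48, the antigen on which cells were excluded, was low but above the floor in all 6 libraries: 3.41, 4.74 and 4.71 CPM after PBS and 7.19, 7.93 and 7.73 CPM after 5-FU (log2 fold change 0.82, SE 0.197, adjusted p = 0.0262). These are 92 to 127 counts in the PBS libraries and 171 to 214 in the 5-FU libraries. Procr rose from 25.3, 26.3 and 26.3 CPM to 33.2, 32.9 and 32.5 CPM. The replicates lay close together in both groups, and the gain was 1.26-fold (log2 fold change 0.33, SE 0.0693, adjusted p = 0.0171). Both calls depend on the libraries and the fit. That of Cd48 was lost without PBS replicate 1 or without any single 5-FU library (adjusted p = 0.0547 to 0.0790) and with all 21 libraries in a single fit (0.181). That of Procr was lost without PBS replicate 1 (0.0536) or 5-FU replicate 2 (0.0541), with the replicate number as a block (0.0521) and in the single fit (0.0653).

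The other 6 genes did not pass the edgeR test after a single 5-FU. Fgd5 was at 47.9, 38.9 and 34.0 CPM after PBS and at 58.4, 55.4 and 49.1 CPM after 5-FU (log2 fold change 0.42, SE 0.135, adjusted p = 0.0616). It passed with DESeq2 (adjusted p = 0.0345), with the replicate number as a block (0.0350) and when PBS replicate 1, the highest control, was left out (0.0240). Tek stood at 222, 207 and 179 CPM against 129.7, 169 and 169 CPM, with every treated library lower (log2 fold change -0.39, adjusted p = 0.0657). It was called lower with library size alone (0.0313), DESeq2 (0.0154) and the single fit (0.0266). Slamf1 was at 39.1, 38.2 and 45.2 CPM after PBS and at 46.6, 47.3 and 54.0 CPM after 5-FU (log2 fold change 0.26, SE 0.0997, adjusted p = 0.0994). Hoxb5 (log2 fold change -0.0040), Thy1 (-0.078) and Ctnnal1 (0.17) overlapped between the groups.

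After 3 administrations of 5-FU the picture at day 6 was in part different. Cd48 rose 3.78-fold, Cd34 and Fgd5 fell, and these 3 of the 10 genes were called (1 higher, 2 lower), against 18.1% of 12729 genes tested (9.84% higher, 8.30% lower). The median log2 fold change of the 10 was 0.011, beside -0.012 over all genes. For 4 of the 10 the libraries did not overlap, against 40.3% of all genes.

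Cd48 was at 2.25, 3.91 and 2.95 CPM after PBS and at 10.9, 12.1 and 11.4 CPM after 5-FU. The treated libraries held 355 to 403 counts each and were the highest of the series, with a ratio of means of 3.78 (log2 fold change 1.90, SE 0.225, adjusted p = 0.00374). Cd34 went from 393, 421 and 436 CPM to 296, 232 and 251 CPM (log2 fold change -0.71, SE 0.104, adjusted p = 0.00668). Both calls held under every alternative run. Fgd5 fell from 40.0, 37.1 and 40.3 CPM to 24.1, 31.0 and 22.2 CPM (log2 fold change -0.63, SE 0.131, adjusted p = 0.0197). Its groups did not overlap, yet the call was lost without PBS replicate 1 (adjusted p = 0.0567) or 3 (0.0607) or 5-FU replicate 1 (0.0620) or 3 (0.0578).

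Ly6a was at 377, 416 and 420.0 CPM after PBS and at 503, 488 and 453 CPM after 5-FU, without overlap but short of the threshold (log2 fold change 0.23, SE 0.0751, adjusted p = 0.0777), which it passed with DESeq2 (0.0102). Procr stood at 23.1, 25.0 and 29.6 CPM against 19.9, 23.6 and 15.1 CPM, and here the groups overlapped (log2 fold change -0.43, SE 0.176, adjusted p = 0.139). In the single fit of all 21 libraries Procr was called lower (0.0266). Slamf1 was at 48.1, 39.7 and 37.6 CPM after PBS and at 51.6, 54.6 and 46.4 CPM after 5-FU (log2 fold change 0.26, adjusted p = 0.166). Tek (-0.026), Hoxb5 (-0.13), Ctnnal1 (0.049) and Thy1 (0.66, SE 0.706) did not pass.

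**Figure D3:**
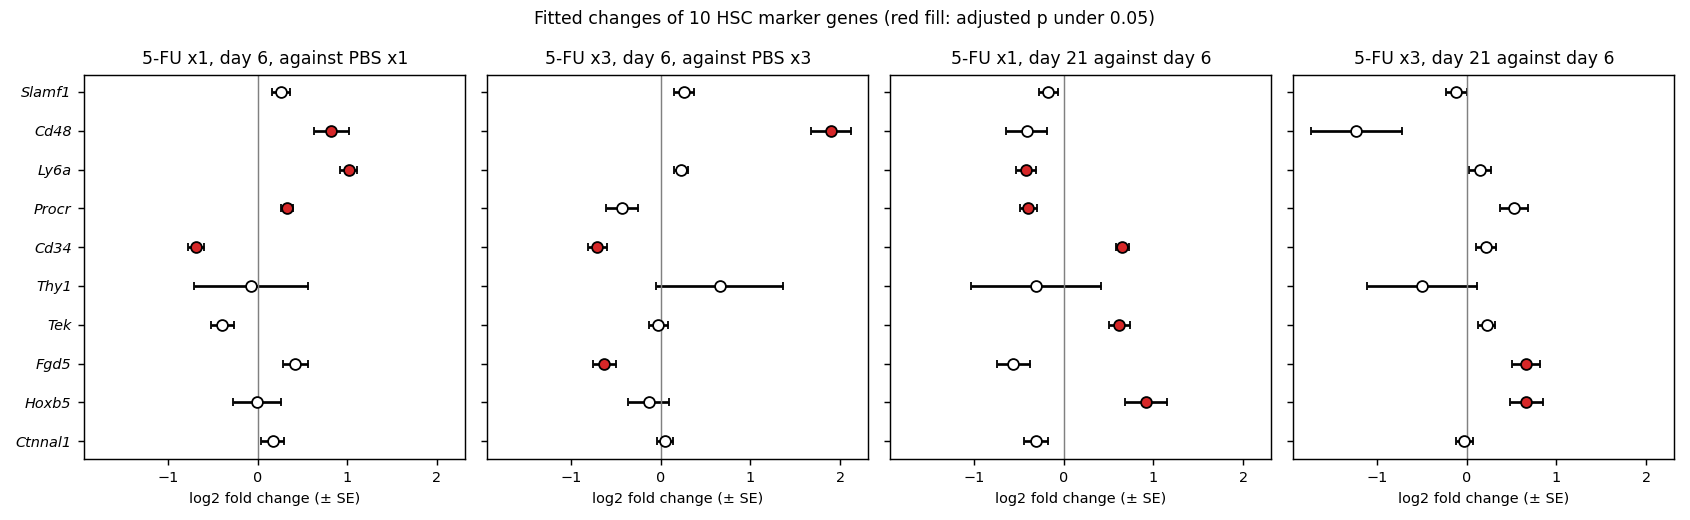
Fitted log2 fold change with SE of the 10 genes in 4 comparisons, each of 3 libraries against 3; red points passed an adjusted p of 0.05. Cd34 (-0.68 and -0.71) and Cd48 (0.82 and 1.90) passed in both comparisons at day 6, while the points of Procr and Fgd5 lie on opposite sides of 0 after 1 and after 3 administrations.

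Whether the response to 5-FU differed between 1 and 3 administrations was tested by an interaction term over the 12 libraries of day 6. The 2 series also differ in age and in the set of column names, which cannot be told apart from the number of administrations. Ly6a and Fgd5, 2 of the 10 genes, passed, both with the lower response after 3 administrations, against 0.650% of 13227 genes tested (0.340% higher and 0.310% lower). For Fgd5, the means after PBS were 40.3 ± 7.03 and 39.2 ± 1.75 CPM, and those after 5-FU were 54.3 ± 4.72 (once) and 25.8 ± 4.61 (3 times), all SD with n = 3. The 2 treated groups differed while the controls lay side by side (interaction log2 difference -1.04, SE 0.199, adjusted p = 0.0453). This call is close to the threshold and was lost in 12 of 19 alternatives, including 10 of the 12 that left out 1 library (adjusted p = 0.0657 to 0.0975 in those 10). It held without replicate 1 of PBS once or replicate 2 of 5-FU 3 times.

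For Ly6a the treated groups had means of 542 ± 61.1 and 481 ± 25.4 CPM, and the controls 267 ± 12.9 and 404 ± 23.6 CPM (interaction log2 difference -0.77, SE 0.119, adjusted p = 0.0170). The larger gap was thus between the controls: HSCs given PBS 3 times had 1.52-fold more Ly6a than those given PBS once (log2 fold change 0.60, SE 0.0700, adjusted p = 0.0920), and the libraries did not overlap. That comparison crosses the 2 sets of column names, and the mice given PBS 3 times were also older, so the number of administrations, age and set cannot be told apart. The interaction call for Ly6a was lost only without replicate 1 of PBS once (adjusted p = 0.0517). Procr (interaction log2 difference -0.75, adjusted p = 0.101) and Cd48 (1.09, adjusted p = 0.102) fell short of the threshold, and Procr passed without replicate 2 of 5-FU 3 times (-0.90, adjusted p = 0.0404). DESeq2 called both (0.0177 and 0.0129).

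Between the 2 PBS groups, none of the 10 genes passed the edgeR test, against 0.0156% of 12806 genes (0.00781% in each direction). At an unadjusted p under 0.05 there were 2, Ly6a and Cd34, and DESeq2 called the same 2. Cd34 was at 334 ± 34.4 CPM after PBS once and 417 ± 21.6 CPM after PBS 3 times (SD, n = 3; log2 fold change 0.32, adjusted p = 0.235). Libraries did not overlap for 3 of the 10, Cd34, Ly6a and Hoxb5, against 20.0% of all genes.

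From day 6 to day 21 after a single 5-FU, Cd34, Tek and Hoxb5 rose and Procr and Ly6a fell: 5 of the 10 genes were called, against 26.0% of 12589 genes (12.3% higher, 13.7% lower). The 2 groups belong to different sets of column names, and the gate was widened at day 6 only. Time, set and gate therefore cannot be told apart in this comparison. Libraries did not overlap for 6 of the 10, against 46.2% of all genes. Cd34 was at 343, 315 and 323 CPM at day 21, all above the 204 to 219 CPM of day 6 (log2 fold change 0.65, SE 0.0708, adjusted p = 0.00167). Tek reached 225, 237 and 253 CPM, its highest mean of the 7 groups (log2 fold change 0.62, SE 0.117, adjusted p = 0.0104). These 2 calls held under every alternative run.

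Hoxb5 was at 4.12, 2.89 and 4.02 CPM at day 6 and at 6.01, 7.47 and 7.22 CPM at day 21 (log2 fold change 0.92, SE 0.236, adjusted p = 0.0287). Procr fell to 27.6, 22.7 and 24.3 CPM (log2 fold change -0.39, SE 0.0960, adjusted p = 0.0243), and Ly6a to 362, 413 and 436 CPM (-0.42, SE 0.108, adjusted p = 0.0292). These 3 calls depend on the libraries used: that of Hoxb5 was lost without any 1 library other than day 21 replicate 1 (adjusted p = 0.0578 to 0.0779), and with the replicate number as a block (0.0665). That of Procr was likewise lost without any 1 library other than day 21 replicate 1 (0.0686 to 0.0815). Ly6a lost its call without day 6 replicate 2 or 3 or day 21 replicate 1 or 2 (0.0585 to 0.0888). Fgd5 stood at 44.2, 26.6 and 39.5 CPM at day 21, below the 49.1 to 58.4 CPM of day 6 (-0.56, adjusted p = 0.0617), and passed without day 21 replicate 1 (-0.71, adjusted p = 0.0414), with DESeq2 (0.0288) and in the single fit (0.0231).

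After 3 administrations, Fgd5 and Hoxb5 rose from day 6 to day 21, 2 of the 10 genes against 19.5% of 12553 genes (8.68% higher). Here too, time and the change of gate cannot be told apart. Libraries did not overlap for 5 of the 10, against 41.0% of all genes. Fgd5 came to 38.0, 36.3 and 47.6 CPM (log2 fold change 0.66, SE 0.157, adjusted p = 0.0262), near the level of PBS-treated HSCs. Hoxb5 went from 4.92, 4.63 and 4.70 CPM to 8.04, 6.58 and 7.95 CPM (log2 fold change 0.67, SE 0.186, adjusted p = 0.0444). The call for Hoxb5 was lost without any 1 library (adjusted p = 0.0538 to 0.116), and that for Fgd5 without replicate 1 or 3 of either group (0.0513 to 0.0914). With the replicate number as a block both were lost (0.0839 for Hoxb5 and 0.0608 for Fgd5).

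Cd48 at day 21 after 3 administrations was at 7.29, 1.35 and 6.02 CPM. Replicate 2 was the lowest of all 21 libraries, with 37 counts, and the other two stood between the PBS and the day 6 level. The difference from day 6 did not pass (log2 fold change -1.23, SE 0.506, adjusted p = 0.134), and without replicate 2 it passed with a smaller change (-0.78, adjusted p = 0.0314). It also passed in the single fit (0.0418). Procr was at 28.3, 27.1 and 28.5 CPM (log2 fold change 0.52, adjusted p = 0.0559), and it passed without day 6 replicate 2 (0.68, adjusted p = 0.0337), with library size alone (0.0367), DESeq2 (0.0237), at least 10 counts in every library (0.0486) and the single fit (0.00554). Cd34 was at 295, 325 and 281 CPM, overlapping with day 6 (0.22, adjusted p = 0.216).

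Compared with PBS-treated HSCs of day 6, none of the 10 genes passed at day 21 after 1 administration (0.221% of 12647 genes, 0.0712% higher and 0.150% lower) or after 3 (0.0475% of 12632 genes, 0.0396% higher and 0.00792% lower). At an unadjusted p under 0.05 there were 2 after 1 administration, Hoxb5 and Ly6a, which DESeq2 also called. There were 3 after 3 administrations, Cd34, Hoxb5 and Ly6a, of which DESeq2 called Cd34 alone. Hoxb5 was above the respective PBS libraries in all 3 libraries in both cases: 6.90 ± 0.779 CPM against 3.66 ± 0.470 after 1 (log2 fold change 0.91, SE 0.221, adjusted p = 0.141) and 7.52 ± 0.818 against 5.14 ± 1.01 after 3 (0.54, SE 0.214, adjusted p = 0.336). The Hoxb5 comparison after 1 administration crosses the sets of column names. Its day 21 libraries (6.01 to 7.47 CPM) overlapped with those of PBS 3 times (4.31 to 6.27 CPM). Against the respective PBS group, libraries did not overlap for 3 of the 10 genes in each comparison, against 21.0% and 21.4% of all genes. Ly6a after 1 administration was at 403 ± 37.8 CPM against 267 ± 12.9 (log2 fold change 0.60, SE 0.0880, adjusted p = 0.0618), a comparison that crosses the sets of column names. With PBS 3 times in its place as control, chosen after seeing the data and within 1 set of names, the difference was -0.00083 on the log2 scale. After 3 administrations Cd34 was at 300.4 ± 22.4 CPM against 417 ± 21.6 (log2 fold change -0.48, SE 0.0818, adjusted p = 0.100).

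Old HSCs, from untreated mice, were set beside HSCs given PBS 3 times, so age and the injections cannot be told apart. Cd34 was lower in old HSCs, the only gene called among the 9 tested (0.996% of 12847 genes, 0.553% higher and 0.444% lower). Its libraries were at 249.9, 272 and 302 CPM against 393, 421 and 436 CPM (log2 fold change -0.61, SE 0.0909, adjusted p = 0.0282). It was also the only 1 of the 9 without overlap, against 16.9% of all genes. The call was lost without any 1 of the 6 libraries (adjusted p = 0.0531 to 0.124) and with the replicate number as a block (0.0549), and with PBS once as control the change was -0.28 (adjusted p = 0.271). Slamf1 was at 52.9, 61.7 and 45.8 CPM in old HSCs, its highest group mean, but overlapped with the controls (0.35, SE 0.144, adjusted p = 0.423). Ly6a was at 422, 392 and 418 CPM, level with PBS 3 times (0.011, adjusted p = 0.990), and above PBS once when that was the control (0.62, adjusted p = 0.00601), a comparison that crosses the sets of column names. Thy1 was too low to be tested here, with 3 to 7 counts per library in old HSCs and 7 to 20 after PBS 3 times.

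The order of the groups is clear for few genes. Neighbors in the order of group means overlapped throughout for Slamf1 (40.8 CPM in PBS once to 53.5 in old HSCs), Ctnnal1 (22.7 in old HSCs to 30.9 at day 6 after a single 5-FU) and Thy1 (0.175 in old HSCs to 0.656 at day 6 after 3 administrations). For Cd34, day 6 after a single 5-FU stood apart at the bottom and PBS 3 times at the top. For Cd48 it was day 6 after 3 administrations at the top, for Ly6a PBS once at the bottom, and for Fgd5 and Procr day 6 after a single 5-FU at the top. Tek at day 21 after a single 5-FU lay above all other groups. Hoxb5 had its highest means in both groups of day 21, and these overlapped with each other.

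The other gate antigens were read in the same way. Kit, the receptor of stem cell factor on which the c-Kit gate is set, was at 1162, 1074 and 989 CPM after PBS once and at 583, 623 and 586 CPM after a single 5-FU (log2 fold change -0.86, SE 0.0721, adjusted p = 0.00111). It also fell after 3 administrations, to 778, 728 and 764 CPM from 1044, 1043 and 948 CPM (-0.44, SE 0.0661, adjusted p = 0.00701). By day 21 it had risen again in both series (1.15 and 0.64, adjusted p = 0.000521 and 0.00429). These values move with the widened c-Kit gate, and the part of the gate in them was not tested. Flt3, a receptor of multipotent progenitors that the methods gate out, fell at day 6 (-1.97 after 1 and -1.18 after 3 administrations, adjusted p = 0.00550 and 0.0120), opposite to Cd48. It was also lower in old HSCs than after PBS 3 times (-1.22, adjusted p = 0.00799). Itgam, which encodes a chain of Mac-1, fell after a single 5-FU (-1.03, adjusted p = 0.0306) and stood at 16.0, 11.2 and 7.45 CPM after 3 administrations against 6.88, 14.4 and 15.3 CPM after PBS (-0.10, adjusted p = 0.868). The Mac-1 antibody was left out of the sort in both cases. Itgam was higher at day 21 than at day 6 (1.99 after 1 and 0.92 after 3 administrations, adjusted p = 0.000717 and 0.0479). The antibody was left out for the sort of day 6, so time and sort cannot be told apart here. After 1 administration the set of column names coincides with them as well.

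Markers of other cells differed between some groups as well. Of all genes tested at day 6, 11.5% were called higher and 10.6% lower after a single 5-FU. After 3 administrations the shares were 9.84% and 8.30%. At day 6 after a single 5-FU, the summed level of 6 megakaryocyte genes was 37.1 to 47.7 CPM against 119 to 146 CPM after PBS, with 0 of 6 called higher and 4 lower. The sum of 13 myeloid genes was 47.7 to 60.3 CPM against 84.9 to 138 CPM (0 higher, 6 lower of 11 tested), and that of 6 stromal genes 7.50 to 12.4 CPM against 54.3 to 126 CPM (0 higher, 2 lower of 4 tested). After 3 administrations these sums were 88.3 to 94.4 CPM against 127 to 141 (megakaryocyte, 0 higher, 3 lower), 41.2 to 62.5 against 72.9 to 102 (myeloid, 0 higher, 1 lower of 10 tested) and 27.5 to 49.0 against 36.5 to 56.2 (stromal, 0 higher, 1 lower of 5 tested). The sum of 10 erythroid genes was 127 to 149 CPM against 51.0 to 67.1 after a single 5-FU and 79.7 to 121 against 52.3 to 68.1 after 3 administrations, but its genes were mixed, with 2 called higher and 1 lower of 7 tested and then 4 higher and 2 lower of 8. The adult beta globin genes Hbb-bs and Hbb-bt rose in both, and the median log2 fold change of the genes tested was 0.12 and -0.13. After a single 5-FU, the endothelial sum was 230 to 261 CPM against 223 to 276 CPM with 0 of 5 called. After 3 administrations it was 243 to 324 CPM against 255 to 275 CPM, with Plvap higher (2.85, adjusted p = 0.0103) and Emcn lower (-0.45, adjusted p = 0.0156) of 5. The defining endothelial gene Cdh5, VE-cadherin, had at most 8 counts in any library of these 4 groups. Lymphoid genes summed to at most 10.0 CPM in any library of the series, and Cd3e and Cd79a had at most 7 counts. Of 6 genes marking multipotent progenitors, which include Cd34, Cd48 and Flt3, 1 was called higher (Cd48) and 4 lower after a single 5-FU, and 2 higher (Cd48 and Mki67) and 3 lower after 3 administrations. The part of these other cell types in the changes of the 10 genes was not tested.

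**Figure D4:**
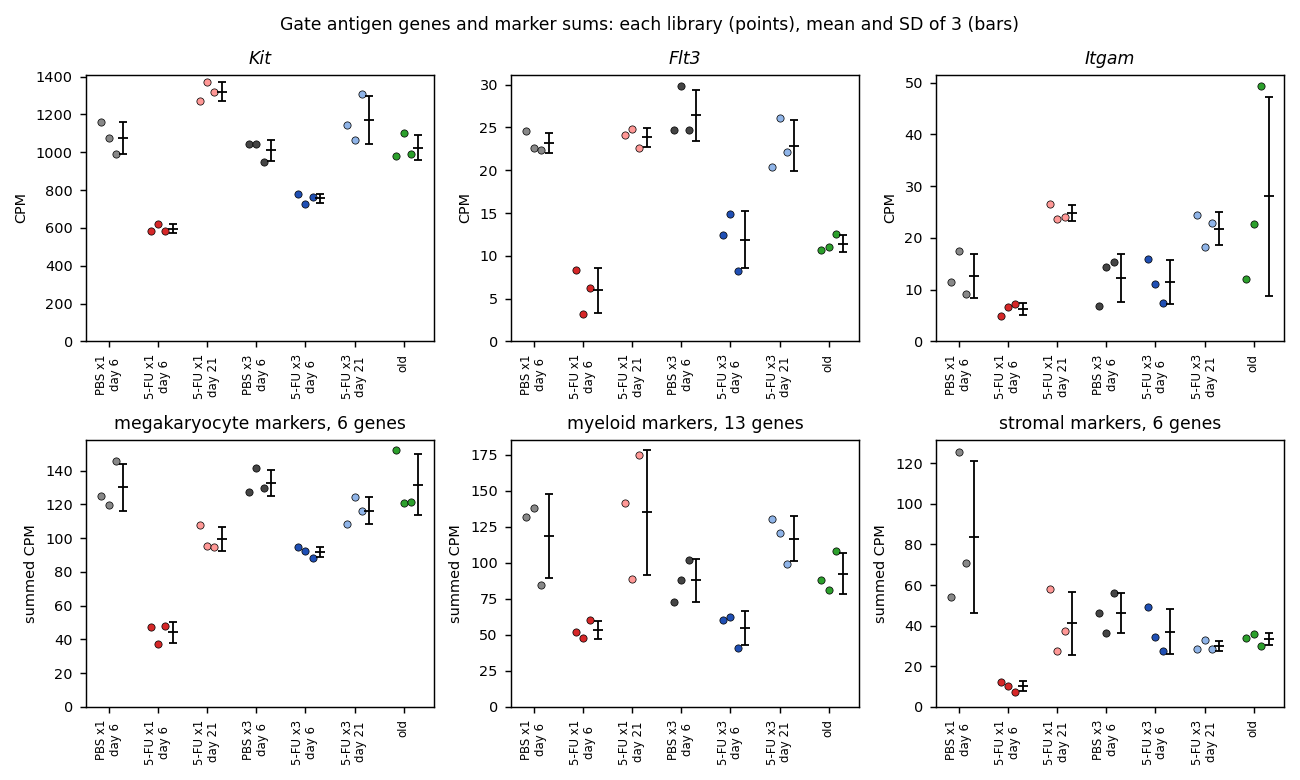
CPM of Kit, Flt3 and Itgam (top) and summed CPM of megakaryocyte, myeloid and stromal marker genes (bottom) in each of the 21 libraries, with the mean and SD of 3. Kit is lowest at day 6 after a single 5-FU (583 to 623 CPM), as are the megakaryocyte (37.1 to 47.7 CPM) and stromal (7.50 to 12.4 CPM) sums.

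Genes of the same families and pathways give the context of each marker. In the SLAM family at day 6 after a single 5-FU, Ly9 rose (1.09, adjusted p = 0.0180) and Cd84 fell (-0.40, adjusted p = 0.0210) among 4 tested besides Slamf1 and Cd48. After 3 administrations Cd84 fell again (-0.39, adjusted p = 0.0417), and no other of these 4 passed. In the Ly6 family, Ly6c1 rose after a single 5-FU (2.19, SE 0.387, adjusted p = 0.00959) from 1.12 ± 0.429 to 5.12 ± 0.868 CPM (SD, n = 3), and no gene of 4 tested besides Ly6a passed after 3 administrations.

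For TIE2 signaling, the ligand gene Angpt1 fell after a single 5-FU, from 649 ± 16.6 to 486 ± 7.24 CPM (-0.42, SE 0.0515, adjusted p = 0.00310). It rose by day 21, as Tek did (0.60, adjusted p = 0.00131), and also by day 21 after 3 administrations (0.38, adjusted p = 0.0143), where Tek stood at 0.23 (adjusted p = 0.138). Tie1, the related receptor, did not pass in these 3 comparisons. In the pathway of EPCR, thrombomodulin (Thbd), which activates protein C together with thrombin, fell after a single 5-FU (-1.30, adjusted p = 0.00717) as Procr rose, and Proc, protein C itself, was at 0 counts in all libraries. F2rl2, a protease-activated receptor, fell at day 6 after both 1 and 3 administrations (-1.24 and -1.23, adjusted p = 0.0336 and 0.0406).

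In the Hoxb cluster, no gene of 7 tested passed at day 6 after 1 or after 3 administrations. From day 6 to day 21 after 3 administrations, Hoxb3 rose with Hoxb5 (1.13, SE 0.271, adjusted p = 0.0274). After 1 administration Hoxb5 was the only one of 7 that passed. Among the relatives of Fgd5, Fgd4 fell after a single 5-FU (-0.83, adjusted p = 0.0175) and rose by day 21 (1.04, adjusted p = 0.00780), and Fgd3 rose by day 21 in both series (0.61 and 1.20, adjusted p = 0.0360 and 0.00386). Among the alpha-catenins and vinculin, Vcl fell after a single 5-FU (-0.32, adjusted p = 0.0384) and Ctnna1 rose after 3 administrations (0.36, adjusted p = 0.0468), while Ctnnal1 passed in none of the comparisons of 2 groups.

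Other genes used to recognize HSCs were counted beside the 10. Of 16, after a single 5-FU 2 were called higher and 4 lower, beside 11.5% and 10.6% of all genes, and after 3 administrations 2 higher and 7 lower, beside 9.84% and 8.30%. In both, Mecom and Neo1 rose, and Pdzk1ip1, Alcam and Robo4 were among those that fell. Alcam, an adhesion molecule, changed by -1.12 (adjusted p = 0.00991) and -1.11 (adjusted p = 0.00259). In old HSCs, Vwf (0.90, adjusted p = 0.0103), Gprc5c (1.98, 0.0467) and Neo1 (2.14, 0.0139) were higher and Cd82 (-0.69, 0.0226) was lower than after PBS 3 times.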

How the data were processed

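RNA from sorted HSCs was amplified with SMART-Seq v4, made into Nextera XT libraries and sequenced as single-end reads of 75 bases. The submitters' processing notes name TopHat2 2.0.13, the mm10 build, Cuffdiff and Cufflinks 2.2.1. The authors deposited whole-number counts for 21000 gene symbols without normalization, and which program counted them is not given in the sources used here. Depth sets the counting error of low genes, and the floors cover counting error only.

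The 10 genes, the lists and the tests were chosen with earlier results of these data known. For each comparison, the counts of its own libraries were filtered with filterByExpr and scaled by the trimmed mean of M values, and a quasi-likelihood model in edgeR 4.0.16 (R 4.3.3) gave an F test for each gene, with Benjamini-Hochberg adjustment over all genes kept (threshold 0.05). The procedure was tested on simulated data. The planted changes were larger than any that the main tests fitted for the 10 genes, so that test does not cover smaller changes. Fold changes are fitted log2 values, and each SE was derived from the fold change and its F statistic. The named genes are all 10, the gate antigens, for each other list at most the 4 called genes with the largest change in a comparison together with defining genes at 0, and the 3 genes nearest to each of the 10 by Pearson correlation of log2(CPM + 1) among genes with a mean of at least 5 CPM. Ly6e, Tie1, Cdh5, Cd3e, Cd79a, Mecom and Robo4 were named after their values were seen. Pairs of libraries of 1 group differed by 16.8 to 37.2 times the variance of read sampling alone (21 pairs), so no library is a copy of another in its group. The alternatives were relative log expression, library size alone, DESeq2 1.42.0, a looser (1 count) and a stricter filter (10 counts in every library), a block for the replicate number, a single fit of the 21 libraries, another control group and each library left out. Lengths and positions come from GENCODE vM21, and upstream sequences from RefSeq. Promoter sequences of Ly6a, Thy1 and Hoxb5 were not used here.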

Additional observations from a re-analysis of the deposited data

Results flagged for a closer look

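Of the 10 genes, 2 responded differently to 5-FU at day 6 after 1 and after 3 administrations by the edgeR interaction test over 12 libraries, against 0.650% of 13227 genes tested. For Ly6a the difference of the 2 log2 fold changes was -0.77 (adjusted p = 0.0170), with log2 fold changes of 1.01 and 0.23, and with 3 of 3 treated libraries above the controls in both. The controls differed by 0.60 on the log2 scale (adjusted p = 0.0920). For Fgd5 the difference was -1.04 (adjusted p = 0.0453), with log2 fold changes of 0.42 and -0.63, so that all 3 treated libraries lay above the controls after 1 administration and below them after 3. This call was lost in 12 of 19 alternatives. In both results the number of administrations, age and the set of column names coincide and cannot be told apart.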

How the results depend on the processing

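Over the 10 genes, without Kit, 1355 of 1499 alternative values kept their direction and their side of the threshold. Of the others, 63 lost and 34 gained a call, and 47 changed sign, all of results that were not called. The causes were not tested. With 3 libraries a group, changes of low genes rest on fewer counts, 3 to 25 in a library for Thy1 and 37 to 403 for Cd48.

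At day 21 against PBS after 1 administration, 1 of the 10 genes was called with library size alone (Ly6a, 83 of all genes), 2 with DESeq2 (725 of all genes) and 2 with all 21 libraries in a single fit (257 of all genes), and with PBS 3 times as control 5 of all genes were called in place of 28. After 3 administrations, 1 of the 10 was called with DESeq2 (592 of all genes) and 1 in the single fit (185 of all genes), and of all genes 3 with relative log expression, 15 with library size alone and 23 with at least 10 counts in every library, in place of 6. From day 6 to day 21 after 3 administrations, the main fit called 2 of the 10 and 2450 of all genes. There, 4 of the 10 were called with library size alone, 4 in the single fit and 1 with all genes of at least 1 count. For old HSCs, DESeq2 called 569 of all genes and PBS once as control gave 242, in place of 128. Between the PBS groups, DESeq2 called 2 of the 10 and 547 of all genes, and the single fit 1 and 19. For the interaction, DESeq2 called 4 of the 10 and 715 of all genes, in place of 2 and 86, and the single fit called 1 of the 10.

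Libraries with the same replicate number showed little shared deviation on average. The mean correlation of their deviations from the group means was between -0.027 and 0.069 over the 8 comparisons, and the numbers were not taken as pairs. With 3 libraries a group, this check cannot decide whether libraries of 1 number share a batch. In each comparison, 0 to 4 of 6 libraries correlated best with their own number. With the number as a replicate block, 1509 of all genes were called at day 6 after 3 administrations (2310 without it), 3 and 0 at day 21 against PBS, 30 for old HSCs, 0 between the PBS groups and 55 for the interaction. Of the 10 genes, Procr then lost its call at day 6 and Hoxb5 its call from day 6 to day 21 after 1 administration, and 0 were called from day 6 to day 21 after 3 administrations, 0 in old HSCs and 1 (Ly6a) for the interaction.

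With 1 library left out, the number of the 10 genes called was 2 to 4 at day 6 after 1 administration, 2 to 5 and 0 to 2 from day 6 to day 21 after 1 and after 3, 0 in old HSCs and 1 to 3 for the interaction. Over all genes it was 1563 to 1947 and 1231 to 1582 at day 6, 1 to 32 and 1 to 4 at day 21 against PBS, 1736 to 2978 and 1351 to 1744 from day 6 to day 21, 20 to 76 for old HSCs, 0 to 1 between the PBS groups and 38 to 170 for the interaction.

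Signs changed as follows, in log2. With library size alone, Ctnnal1 was at -0.052 at day 6 after 3 administrations and at 0.087 from day 6 to day 21 after 3, and the interaction of Slamf1 was -0.0488. In the single fit, Hoxb5 at day 6 after 1 administration was at 0.0049. With PBS 3 times as control at day 21 after 1 administration, Ly6a was at -0.00083, Thy1 at 0.19 and Ctnnal1 at 0.032. With PBS once as control for old HSCs, Cd48 was at -0.14, Tek at -0.045 and Kit at -0.071. With 1 library left out, the values ran at day 6 after 1 administration from -0.31 to 0.20 for Thy1 and from -0.095 to 0.15 for Hoxb5, and after 3 from -0.11 to 0.051 for Tek and from -0.25 to 0.036 for Hoxb5. At day 21 against PBS they ran from -0.11 to 0.035 for Cd34 and -0.28 to 0.054 for Fgd5 after 1 administration, and from -0.073 to 0.61 for Thy1, -0.080 to 0.13 for Fgd5 and -0.0096 to 0.10 for Ctnnal1 after 3. From day 6 to day 21 after 3, Ctnnal1 ran from -0.075 to 0.043. In old HSCs the ranges were -0.039 to 0.048 for Ly6a, -0.24 to 0.022 for Ctnnal1 and -0.051 to 0.050 for Kit. Between the PBS groups they were -0.075 to 0.12 for Slamf1, -0.11 to 0.075 for Procr and -0.15 to 0.10 for Fgd5, and for the interaction -0.063 to 0.11 for Slamf1, -0.13 to 0.077 for Cd34 and -0.27 to 0.053 for Hoxb5.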

Other observations

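For each of the 10 genes, the 3 genes with the most similar pattern were sought by Pearson correlation of log2(CPM + 1) over the 21 libraries among 10489 others (10490 for Thy1). The libraries share the 7 groups, so a correlation mostly describes the group pattern, and no test was made. Hoxb5 lay nearest to Rps6ka5 (0.88), Fam117a (0.84) and Tgif1 (0.82), and Cd34 nearest to Sh2d5 (0.88), Mdga1 (0.87) and Pdgfrb (0.86). Cd48 was nearest to Rbm14 (0.87), 2310022A10Rik (0.85) and Strn4 (0.83), and Ly6a to Fxyd5 (0.84), S100a6 (0.82) and Tmem33 (0.81). Procr was nearest to Slc50a1 (0.85), Xbp1 (0.83) and Gimap6 (0.82), and Fgd5 to Procr itself (0.77), Fcho2 (0.73) and Mageh1 (0.72). Tek was nearest to Trim21 (0.81), Cnot8 (0.79) and Hipk1 (0.78). The values were lower for Slamf1 (Tor2a 0.69, Vmp1 0.69, Cpt1c 0.68), Ctnnal1 (B4galt5 0.72, Asb6 0.70, Ppm1m 0.69) and Thy1 (Taf5 0.75, Toe1 0.74, Edrf1 0.74). Among the 10 themselves, Cd34 ran opposite to Cd48 (-0.62), Slamf1 (-0.59) and Ly6a (-0.48).

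Pdgfrb, a receptor of stromal cells, was itself lower at day 6 after 1 (log2 fold change -2.45, adjusted p = 0.00683) and after 3 administrations (-1.64, adjusted p = 0.0231), as Cd34 was. The stromal genes tested had a median log2 fold change of -2.29 after 1 administration (4 genes). After 3 administrations the median was 0.25 (5 genes), so Pdgfrb did not stand for the list there. Mki67, a gene of dividing cells, rose at day 6 after 3 administrations (0.96, adjusted p = 0.0199) and fell by day 21 in both series (-0.88 and -1.23, adjusted p = 0.00301 and 0.00181). Ly6e, the most abundant gene of the Ly6 family tested, had means of 3060 ± 57.5 CPM after PBS 3 times and 3544 ± 84.1 CPM in old HSCs (SD, n = 3; log2 fold change 0.20, adjusted p = 0.0880).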
